A study of Mus musculus with 48 samples.

Results

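Accessible chromatin was examined at 7 genes that mark neuroendocrine cells: Chga, Chgb, Scg2, Calca, Syt1, Ncam1 and Uchl1. Members were the merged ATAC-seq peaks of 501 bp centred in a fixed window of build mm9 around each gene. The windows ran on chromosome 12 from 103.7 to 103.9 Mb (Chga), chromosome 2 from 132.55 to 132.7 Mb (Chgb), chromosome 1 from 79.3 to 79.55 Mb (Scg2), chromosome 7 from 121.7 to 121.85 Mb (Calca), chromosome 10 from 107.85 to 108.55 Mb (Syt1), chromosome 9 from 49.25 to 49.67 Mb (Ncam1) and chromosome 5 from 67 to 67.13 Mb (Uchl1). They held 138 of 114043 merged peaks: 23 at Chga, 11 at Chgb, 19 at Scg2, 11 at Calca, 57 at Syt1, 17 at Ncam1 and 0 at Uchl1. The rule for a peak within a window used position and no accessibility value, though the genes were chosen with earlier results of these data known.

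ATAC-seq, in which a transposase cuts and tags open DNA, was applied to mouse small cell lung cancer. All mice carried the genotype Trp53-/-;Rb1-/-;p130-/-;R26mG, so every group lacked the same tumor suppressors. Cre came from adenovirus, either Ad-CMV-Cre, whose viral promoter works in many cell types, or Ad-CGRP-Cre, whose promoter is that of a neuroendocrine peptide. In the CMV model, 8 libraries with Nfib amplification (5 liver metastases, 1 lymph node metastasis and 2 lung tumors) were set against 7 lung tumor libraries without it. Of the amplified libraries, 2 came from preparation batch 1 and 6 from batch 3. Of those without amplification, 2 came from batch 1 and 5 from batch 3, and the part of batch was not tested. The product of Nfib is nuclear factor I/B, a transcription factor. In the CGRP model, 7 liver metastasis libraries were set against 11 lung tumor libraries, 1 of them Nfib-amplified. The submitters' descriptions call the chromatin of the 8 amplified libraries hyperaccessible. Tissue and amplification cannot be told apart in the CMV comparison, since the tables give no value for the 2 amplified lung tumors alone. Another 15 CMV libraries, which the labels exclude for low enrichment, contributed to a summit list but to neither comparison. No source used here gives the ages of the animals or says which libraries share an animal. The titles carry shared codes whose meaning is not stated: 3 codes cover the 15 compared CMV libraries and 5 codes the 18 CGRP libraries, and 2 CMV and 3 CGRP codes occur in both groups of their comparison. Libraries may therefore share animals or tumors, and the p-values measure spread between libraries, which may be technical. By its title, the series asks how the cell of origin shapes differences between tumors. The files held fitted changes and no value per library, so sequencing depth is unknown, and the labelled cell type could not be checked against expression. In bulk tissue, a smaller share of neuroendocrine cells and less open chromatin per cell cannot be told apart.

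Neuroendocrine cells package peptide hormones into dense-core granules and release them when calcium enters the cell. Chga, Chgb and Scg2 encode granins, acidic proteins that help build these granules and are cut into peptides. Calca encodes calcitonin and calcitonin gene-related peptide (CGRP), a peptide of pulmonary neuroendocrine cells and the source of the name Ad-CGRP-Cre. Syt1 encodes synaptotagmin 1, the calcium sensor of vesicle fusion. Ncam1 encodes the neural cell adhesion molecule CD56, and Uchl1 the deubiquitinating enzyme PGP9.5. Products of several of these genes serve to recognise small cell lung cancer in the clinic.

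The granin promoters are shown because these genes share a role and their windows hold 53 of the 138 peaks. The sequences are those of RefSeq on GRCm38.p6, 250 bases before to 50 bases after the annotated start, written 5′ to 3′ along the gene. The Chga promoter lies at chr12:102554691-102554990 (plus strand), Chgb at chr2:132781392-132781691 (plus strand) and Scg2 at chr1:79439977-79440276 (minus strand). These coordinates are of another build than the peaks, so whether a peak covers them was not determined. Capitals mark the letters TGACG on either strand, the core of the cAMP response element.

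Chga: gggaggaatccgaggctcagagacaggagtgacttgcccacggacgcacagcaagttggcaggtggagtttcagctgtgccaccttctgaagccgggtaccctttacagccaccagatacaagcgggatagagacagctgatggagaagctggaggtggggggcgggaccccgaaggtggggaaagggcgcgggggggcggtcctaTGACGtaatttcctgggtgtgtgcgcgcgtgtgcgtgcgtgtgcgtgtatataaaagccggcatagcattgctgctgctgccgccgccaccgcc

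Chgb: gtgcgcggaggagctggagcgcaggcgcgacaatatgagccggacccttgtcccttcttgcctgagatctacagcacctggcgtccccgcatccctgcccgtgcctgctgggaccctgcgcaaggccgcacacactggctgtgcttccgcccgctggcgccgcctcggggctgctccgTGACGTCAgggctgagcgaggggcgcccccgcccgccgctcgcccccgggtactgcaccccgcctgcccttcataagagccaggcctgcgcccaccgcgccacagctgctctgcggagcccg

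Scg2: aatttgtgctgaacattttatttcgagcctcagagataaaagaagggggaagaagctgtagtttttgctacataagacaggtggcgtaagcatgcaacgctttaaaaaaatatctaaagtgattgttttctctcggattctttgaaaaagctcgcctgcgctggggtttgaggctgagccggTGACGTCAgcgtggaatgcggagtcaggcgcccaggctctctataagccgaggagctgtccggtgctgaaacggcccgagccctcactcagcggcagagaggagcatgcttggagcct

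The full element TGACGTCA stood once in Chgb, from 72 to 65 bases before the start (counted as 0), and once in Scg2, from 68 to 61 bases before it. Chga had the core TGACG once, from 44 to 40 bases before the start. Both strands were searched, and the palindromic full element holds the core on each. Of 32851 RefSeq promoters of this length, 1.79% held the full element and 20.8% the core. The Calca promoter also held the core, from 65 to 61 bases before its start. E-boxes with the letters CAGCTG occurred in Chga (2 matches), Chgb, Calca and 1 of 2 Syt1 promoters, and in 16.3% of all promoters. The nuclear factor I core TTGGCA was found in Chga, ending 190 bases before the start, and in 14.1% of all promoters. Scg2 held TTCAGCACC, the left part of the element read by the neuronal gene repressor REST, across its start on the opposite strand; 0.371% of promoters held it. The letters GGACAG, the right part of that element, directly followed it in Scg2 and were found in the other Syt1 promoter, and in 22.2% of all promoters. The left and right parts were searched apart, so whether their spacing is that of the whole element was not checked. TATAAA was found in Chga, from 5 to 10 bases after the annotated start, and in 13.6% of promoters. CAGATG (17.2% of promoters) and the spaced nuclear factor I palindrome (0.0365%) had no match in the member promoters. The Uchl1 promoter held none of the motifs searched. Such matches describe letters in a window and no bound site.

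In the CMV model, more peaks at these loci gained accessibility than lost it with Nfib amplification. By the adjusted p of the authors' deposited table, with a threshold of 0.05, 55 of 138 peaks were raised (39.9%), where 34.3% of all peaks were. Another 16 were lowered (11.6%), where 12.2% of all peaks were. The shares were thus near those of the whole table. The median log2 fold change of the 138 peaks was 0.67 (quartiles -0.21 and 1.73), against 0.60 over all peaks. After both were centred on the median of all peaks, 30 peaks were higher and 37 lower, with 19.9% and 25.5% over the whole table, so the balance of gains and losses rests on the scaling. Centring removes any shift shared by all peaks, such as the hyperaccessibility that the submitters describe. Members whose median lies near that of all peaks then come near balance by construction. Raised peaks had a median change of 2.18, or 4.54-fold, and lowered peaks a median of -1.86, or 3.64-fold, from the authors' deposited table. The authors' second test, for changes beyond 0.5 on the log2 scale, raised 26 of the 138 peaks (19% of all peaks) and lowered 7 (4.64% of all peaks).

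**Figure D1:**
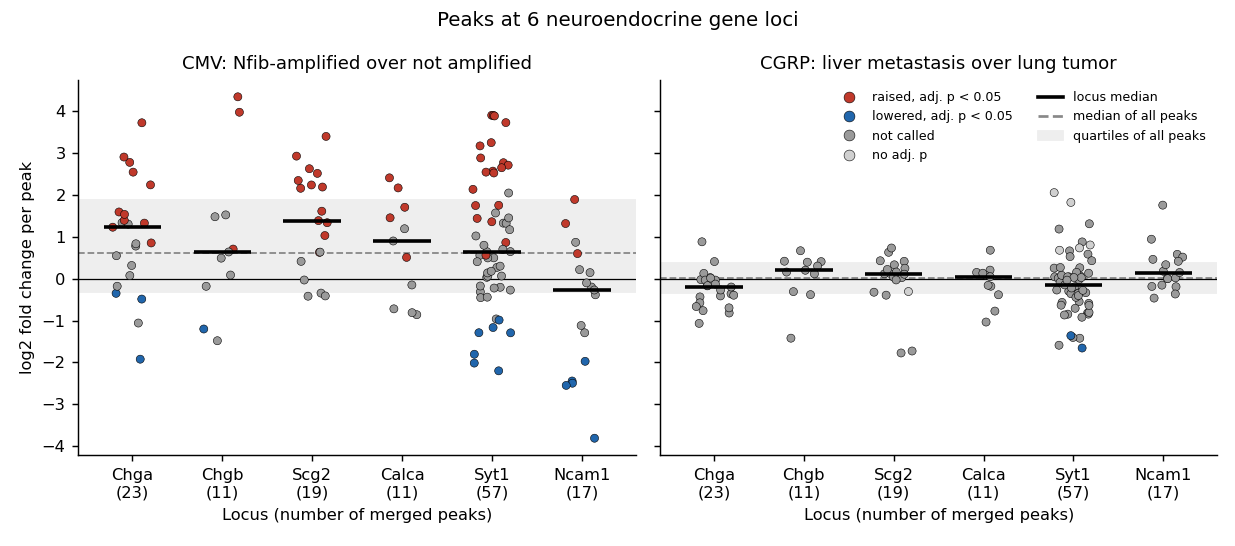
Log2 fold change of each of 138 peaks by locus, for Nfib-amplified over not amplified CMV libraries (left) and for CGRP liver metastases over lung tumors (right). Thick bars are locus medians, the dashed line and band are the median and quartiles of all peaks, and colours mark the authors' adjusted p under 0.05. The CMV medians run from -0.27 at Ncam1 to 1.38 at Scg2, and 2 peaks, both at Syt1, are called in the CGRP panel.

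The counts of gains and losses varied by locus, with no test between loci. Over all peaks, 34.3% were raised and 12.2% lowered, and with centring 19.9% were higher and 25.5% lower. Scg2 had 13 of 19 peaks raised and 0 lowered, and Calca 5 of 11 raised and 0 lowered, by the authors' deposited table. At Chga, 11 of 23 were raised and 3 lowered. Chgb had 3 of 11 raised and 1 lowered, and Syt1 20 of 57 raised and 7 lowered. Ncam1 stood at the other end, with 3 of 17 raised and 5 lowered. With centring, the higher and lower peaks numbered 6 and 2 at Scg2, 3 and 3 at Calca, 5 and 5 at Chga, 2 and 4 at Chgb, 13 and 15 at Syt1, and 1 and 8 at Ncam1. Of 65 pairs of neighboring called peaks within a window, 20 had opposite directions, 10 of these at Syt1. The same count was not made over all peaks, so it shows no trait of these loci.

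The authors' mean normalised count over libraries was taken as the strength of a peak, and the range of changes is given by strength without a test. At a mean count of at least 100, 22 member peaks had CMV log2 fold changes from -0.49 to 2.54, with 10 raised and 2 lowered. Over all peaks of that strength, 25.4% were raised and 23.9% lowered. Below the genome median of 21.2, 64 members spanned -3.81 to 3.72, with 21 raised (32.8%) and 8 lowered (12.5%). The corresponding shares of all weaker peaks were 34.4% and 6.81%. At or above that median, 74 members spanned -2.20 to 4.33, with 34 raised (45.9%) and 8 lowered (10.8%), against 34.1% and 17.7% of all such peaks. Weaker peaks had larger errors, with a median SE of 0.69 for the 64 members and 0.20 for the 22. The mean count includes the compared libraries, so a peak open in few of them has a low mean by construction.

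Chga encodes chromogranin A, the granin most used as a serum and tissue marker. Its locus had a median CMV log2 fold change of 1.23 (quartiles 0.19 and 1.56). The strongest peak, chr12:103707079-103707579 with a mean count of 201, was slightly lower with amplification, at -0.35 (SE 0.13, adjusted p = 0.0155) by the authors' deposited table. A second strong peak at chr12:103792008-103792508 had -0.49 (SE 0.21, adjusted p = 0.0480), by the authors' deposited table. The largest gain was at chr12:103818278-103818778, with 3.72 (SE 0.88, adjusted p = 0.000203), a 13.1-fold difference by the authors' deposited table. Its mean count was 25.0, and the CGRP comparison gave it -1.07 (SE 0.89, adjusted p = 0.769), by the authors' deposited table. The largest loss was at chr12:103859963-103860463, with -1.92 (SE 0.76, adjusted p = 0.0275), by the authors' deposited table. Raised and lowered peaks thus lay within the same 200 kb, and the pair of strongest peaks had the smallest changes among those called. The flanks of 1 Mb on each side had a median of 0.21, with 27 of 127 peaks raised and 18 lowered. RefSeq places Golga5 and Itpk1 next to Chga, so peaks of the window, the strongest included, need not belong to Chga. The same holds for the other windows.

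Chgb encodes chromogranin B, a granin of the same granules. The strongest peak, chr2:132641608-132642108 with a mean count of 351, was close to 0, at 0.08 (SE 0.14, adjusted p = 0.635) by the authors' deposited table. A peak of mean count 274 at chr2:132607099-132607599 was raised by 0.70 (SE 0.16, adjusted p = 0.000166), by the authors' deposited table. With centring it had 0.10 and was not called. The largest gain among all member peaks was at chr2:132577009-132577509, with 4.33 (SE 0.81, adjusted p = 2.48e-06), or 20.2-fold, by the authors' deposited table. The peak at chr2:132695485-132695985 gained 3.97 (SE 0.78, adjusted p = 8.23e-06), by the authors' deposited table. The lowered peak, chr2:132610206-132610706, about 3 kb from the raised peak of mean count 274, had -1.20 (SE 0.44, adjusted p = 0.0165) by the authors' deposited table. Both peaks with large gains had mean counts near the median of the 138 peaks (26.1 and 22.8, against 25.0). Flanks had 65 of 167 peaks raised and 16 lowered. Shld1 and Trmt6 are the RefSeq neighbors, and the strongest peak of the window may belong to a neighbor rather than to Chgb.

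Scg2 encodes secretogranin II, the precursor of secretoneurin. No called peak of the window was lowered, and the raised peaks ran from 0.63 to 3.39 on the log2 scale by the authors' deposited table. The strongest, chr1:79396906-79397406 with a mean count of 282, was raised by 0.63 (SE 0.21, adjusted p = 0.00908) by the authors' deposited table. Centring brought it to 0.02. The next strongest raised peak, chr1:79436405-79436905 with a mean count of 124, had 1.33 (SE 0.26, adjusted p = 7.99e-06) by the authors' deposited table. The largest gain was at chr1:79461166-79461666, with 3.39 (SE 0.73, adjusted p = 4.54e-05), or 10.5-fold, by the authors' deposited table. A peak of mean count 214 at chr1:79478201-79478701 was not called, at -0.42 (SE 0.25, adjusted p = 0.155), by the authors' deposited table. Flanks had a median of 0.98, with 63 of 149 peaks raised and 12 lowered, against 1.38 in the window. Scg2 lies between Kcne4 and Ap1s3 in RefSeq.

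Calca carries the peptide whose promoter names Ad-CGRP-Cre. Its 5 raised peaks clustered between 78.1 and 116 kb from the window start. The strongest, chr7:121779598-121780098 with a mean count of 155, was raised by 0.51 (SE 0.16, adjusted p = 0.00543) by the authors' deposited table. Centring turned it to -0.10. A neighbor about 1 kb away, chr7:121780649-121781149, rose by 1.45 (SE 0.27, adjusted p = 2.94e-06), by the authors' deposited table. The largest gain, at chr7:121788569-121789069, was 2.40 (SE 0.62, adjusted p = 0.000623), or 5.29-fold, by the authors' deposited table. The remaining 6 peaks were not called and spanned -0.86 to 1.19. Flanks had 98 of 156 peaks raised and 9 lowered, with a median of 1.52 against 0.90 in the window. Cyp2r1 and Calcb, the paralog that encodes the second form of CGRP, are the RefSeq neighbors.

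Syt1 had the longest window, 700 kb, and the strongest peak of the 138. That peak, chr10:108447800-108448300 with a mean count of 602, rose by 0.56 (SE 0.08, adjusted p = 5.24e-09), or 1.47-fold, by the authors' deposited table. Centring turned it to -0.05. Its neighbor within 1 kb, chr10:108448399-108448899 with a mean count of 340, was not called at 0.18 (SE 0.13, adjusted p = 0.274), by the authors' deposited table. The gain with the lowest adjusted p was at chr10:108416642-108417142, with 2.54 (SE 0.36, adjusted p = 5.15e-10), or 5.81-fold, at a mean count of 100.4, by the authors' deposited table. The largest gain was at chr10:108020639-108021139, with 3.89 (SE 0.89, adjusted p = 0.000104), or 14.9-fold, by the authors' deposited table. The largest loss was at chr10:108175218-108175718, with -2.20 (SE 0.42, adjusted p = 3.48e-06), or 4.59-fold, by the authors' deposited table. Lowered peaks had mean counts from 16.5 to 82.0 and lay among raised ones. Flanks had a median of 1.85 with 103 of 179 peaks raised and 8 lowered, against 0.64 in the window. Pawr and Gm5136 are the RefSeq neighbors.

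Ncam1, the surface molecule among these genes, had more losses than gains on the authors' scaling, and after centring. The largest loss of any member, at chr9:49306922-49307422, was -3.81 (SE 0.59, adjusted p = 1.03e-08), or 14-fold, by the authors' deposited table. A peak about 2 kb away, chr9:49309118-49309618, had -2.44 (SE 0.74, adjusted p = 0.00354), by the authors' deposited table. The other 3 lowered peaks were chr9:49485425-49485925 at -2.49 (SE 0.66), chr9:49563084-49563584 at -1.97 (SE 0.85) and chr9:49570204-49570704 at -2.55 (SE 0.71), by the authors' deposited table. All 5 were weak, with mean counts from 7.26 to 20.9. The largest gain was at chr9:49500857-49501357, with 1.89 (SE 0.46, adjusted p = 0.000290), or 3.70-fold, by the authors' deposited table. The strongest peak, chr9:49604737-49605237 with a mean count of 113, was not called, at 0.21 (SE 0.20, adjusted p = 0.382), by the authors' deposited table. At a mean count of 20 or more, the locus median was 0.14, against -0.27 over all 17. Flanks had a median of 0.32, with 30 of 111 peaks raised and 11 lowered. RefSeq places Ttc12 and Plet1 beside Ncam1.

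**Figure D2:**
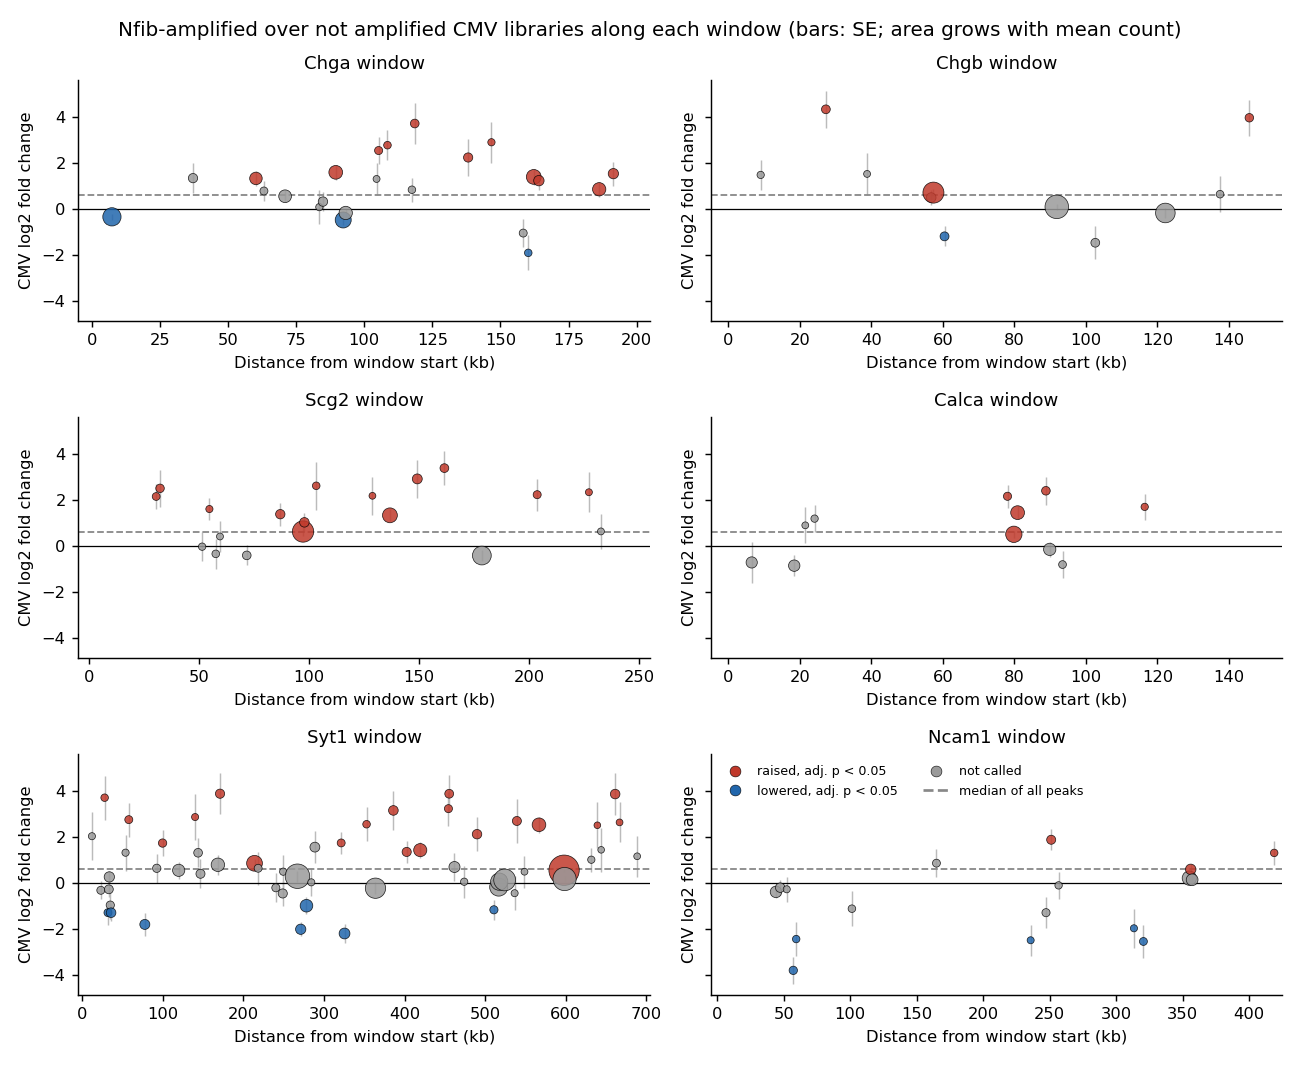
CMV log2 fold change (Nfib-amplified over not amplified) of each peak against its distance from the window start in kb, 1 panel a locus. Bars are the authors' SE, point area grows with the mean normalised count, colours mark adjusted p under 0.05, and the dashed line is the median of all peaks, 0.60. Large points lie near the lines, and the largest gains and losses are small points.

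In the CGRP model, few peaks at these loci passed the test between liver metastases and lung tumors. By the authors' deposited table, whose column names are those of DESeq2, 0 of 132 peaks with an adjusted p were raised (background 0.0752%) and 2 were lowered (background 0.779%). At an unadjusted p under 0.05, 5 peaks were above 0 and 9 below, against 3.37% and 6.25% of all peaks. These are 14 of 138 members (10.1%), against 9.62% of all peaks. The median log2 fold change was -0.01 (quartiles -0.39 and 0.25), and at the members' median SE a change under 0.99 had an unadjusted p above 0.05. By locus, the medians ran from -0.20 at Chga, where 18 of 23 peaks were below 0, to 0.20 at Chgb. Of all 114043 peaks, 55731 were below 0, as were 72 of 127 in the Chga flanks. The Chgb flanks had a median of 0.23, near that of the window. The strongest peak of each locus was not called in the authors' deposited table. These strongest peaks had 0.02 (SE 0.07) at Syt1, 0.16 (SE 0.12) at Chgb, 0.33 (SE 0.18) at Scg2, -0.02 (SE 0.10) at Chga, 0.05 (SE 0.14) at Calca and 0.15 (SE 0.17) at Ncam1, by the authors' deposited table. Preparation batch also differed, since all 7 liver metastases came from batch 2 and the lung tumors from batches 2 (7 libraries) and 3 (4 libraries); its part in the result was not tested.

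Both lowered peaks lay at Syt1. The peak at chr10:107885355-107885855 had -1.66 (SE 0.33, adjusted p = 0.000391), or 3.15-fold, by the authors' deposited table. The peak at chr10:108120805-108121305 had -1.36 (SE 0.25, adjusted p = 0.000127), or 2.57-fold, by the authors' deposited table. In the CMV libraries, by the authors' deposited table, the same peaks were lowered with amplification, with log2 fold changes of -1.29 (SE 0.37, adjusted p = 0.00225) and -2.01 (SE 0.31, adjusted p = 1.27e-08). Their mean counts were 36.8 and 45.5. Over all peaks adjusted in both comparisons, 0.364% were lowered in both. The z test of the difference gave 0.36 (SE 0.50, adjusted p = 0.624) for the first and -0.65 (SE 0.40, adjusted p = 0.229) for the second. In the CGRP comparison, neither passed the authors' second test, which asks for more than 0.5 on the log2 scale in either direction. There, 0 member peaks (0.058% of all) passed it as lowered. In the CMV comparison, the second peak passed that test (adjusted p = 5.95e-05) and the first did not (adjusted p = 0.111).

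The CMV and CGRP changes, which come from different libraries, were compared peak by peak. Mean counts were identical in both comparisons, so both may come from a joint fit with shared estimates of spread. The z test takes their errors as independent. A two-sided z test with Benjamini-Hochberg adjustment over all peaks called 37 of 138 differences (26.8%), against 23.4% of all peaks. The CMV change was the higher in 31 (17.8% of all peaks) and the lower in 6 (5.62% of all peaks). With each comparison centred, 17 were higher and 18 lower, against 9.13% and 15.8% of all peaks. Of the 37 peaks, 36 were themselves called in the CMV comparison in that direction and 0 in the CGRP comparison. The 31 had a median difference of 2.81.

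At Chga, 9 of 23 peaks changed more upward in the CMV comparison, against 17.8% of all peaks. With centring, the 31 higher and 6 lower differences of all loci became 17 and 18, and no centred count was made by locus. The lowest adjusted p at Chga was that of chr12:103805014-103805514. There the CMV change was 2.54 (SE 0.59) and the CGRP change -0.76 (SE 0.55), a difference of 3.30 (SE 0.80, adjusted p = 0.000961). A strong Chga peak, chr12:103861983-103862483 with a mean count of 123, differed by 1.97 (SE 0.48, adjusted p = 0.00105). The largest difference of any member was at the Chgb peak with the 20.2-fold gain, at 5.75 (SE 1.13, adjusted p = 3.41e-05). The Chgb peak lowered with amplification also differed, by -1.62 (SE 0.55, adjusted p = 0.0209). Scg2 had 6 of 19 peaks with the higher CMV change. Its peak chr1:79448847-79449347 had 2.92 (SE 0.81) in the CMV and -1.73 (SE 0.81) in the CGRP comparison. The difference there was 4.65 (SE 1.15, adjusted p = 0.00115 by the z test). Calca had 2 of 11, at chr7:121777824-121778324 with 3.20 (SE 0.71, adjusted p = 0.000262) and at chr7:121780649-121781149 with 1.30 (SE 0.37, adjusted p = 0.00454).

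Syt1 had 57 peaks, 12 with the higher and 1 with the lower CMV change, against 17.8% and 5.62% of all peaks. Its strongest peak differed by 0.53 (SE 0.11, adjusted p = 9.71e-05), and the 5.81-fold gain by 2.39 (SE 0.49, adjusted p = 6.58e-05). The first of these is smaller than the gap between the medians of all peaks, 0.60 in the CMV and 0.01 in the CGRP comparison. At Ncam1 all 4 called differences among 17 peaks were lower in the CMV comparison, 1 of them at a peak not itself called there (chr9:49293916-49294416). The largest loss differed by -3.34 (SE 0.70, adjusted p = 0.000114). The peak about 2 kb from it differed by -3.38 (SE 0.95, adjusted p = 0.00478), with a CGRP change of 0.94 (SE 0.61).

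**Figure D3:**
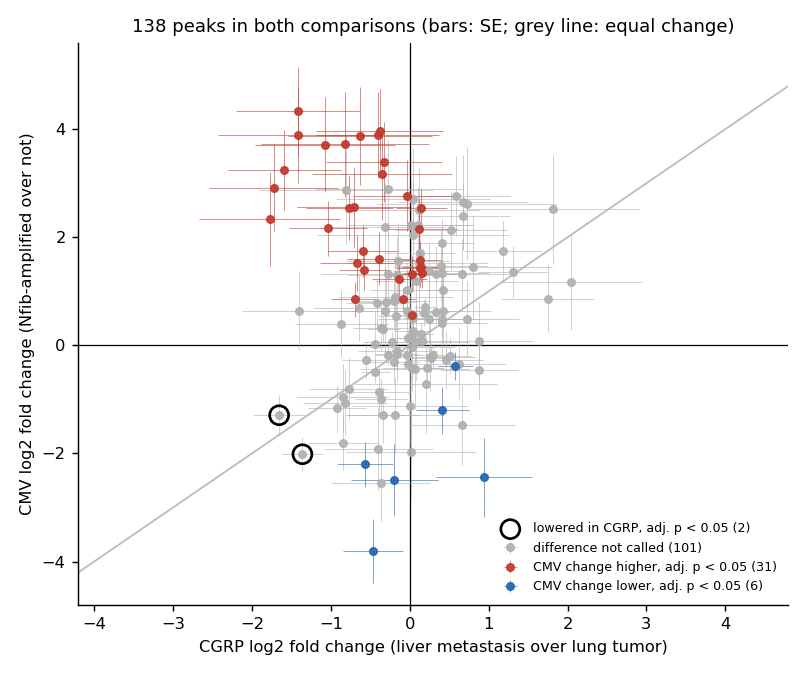
CMV log2 fold change (Nfib-amplified over not amplified, vertical) against CGRP log2 fold change (liver metastasis over lung tumor, horizontal) for 138 peaks, with SE bars. Red and blue mark the 31 higher and 6 lower CMV changes at an adjusted p under 0.05, circles mark the 2 peaks lowered in the CGRP comparison, and the grey line marks equal change.

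Summit lists, called by the authors on pools of libraries, were counted at the same loci. The CMV pool joins 19 libraries of preparation batch 1, 15 of them low in enrichment, the CGRP pool 14 of batch 2, and the mixed pool 11 CMV and 4 CGRP libraries of batch 3. Vector and batch cannot be told apart between the CMV and CGRP pools. A summit within 250 bp of the peak centre was found for 117 of 138 peaks in the CMV pool (84.8%, against 88.6% of all peaks), 112 in the CGRP pool (81.2% against 75.0%) and 123 in the mixed pool (89.1% against 89.5%). All 3 pools had a summit at 91 peaks (65.9% against 64.8%).

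The split of summits between pools varied by locus, again with no test. Ncam1 had a CGRP-pool summit at all 17 peaks and a CMV-pool summit at 12. Of its 5 peaks lowered with Nfib amplification, 5 held a CGRP-pool and 1 a CMV-pool summit; of all lowered peaks, 97.9% and 75.2% did. At Syt1, 50 of 57 peaks held a CMV-pool and 41 a CGRP-pool summit, and of its 20 raised peaks 19 and 10 did. Of all raised peaks, 96.5% held a CMV-pool and 54.6% a CGRP-pool summit. Counting every summit in the window, Syt1 had 132 in the CMV pool and 62 in the CGRP pool, a ratio of 2.13 where the whole lists had 1.46. The ratio was 1.65 at Scg2, 1.36 at Calca, 0.92 at Chgb, 0.92 at Uchl1, 0.91 at Chga and 0.72 at Ncam1. List lengths differ between pools, so these ratios describe lists and show no change in accessibility.

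Uchl1 had no merged peak but many summits. The window held 12 summits of the CMV pool, 13 of the CGRP pool and 14 of the mixed pool. Joined where they lay within 250 bp of the next, they formed 15 sites, of which 10 had summits of all 3 pools. The strongest site, chr5:67010022-67010047, had scores (−log10 of the q-value, the authors' own) of 328, 850 and 484 in the CMV, CGRP and mixed pools. Those scores ranked within the top 1.70%, 3.18% and 2.52% of the lists. Sites at chr5:67011627-67011664, chr5:67067391-67067419 and chr5:67067913-67067945 ranked within the top 6.95% of every list. The window lay in a stretch of 4.31 Mb without any merged peak, between a peak that ends at 63717909 and one that starts at 68024313 on chromosome 5. The stretch held 402 CMV-pool, 416 CGRP-pool and 464 mixed-pool summits. No source used here gives the filter behind the merged list. Neither comparison can therefore be read at Uchl1, which RefSeq places between Apbb2 and Limch1.

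**Figure D4:**
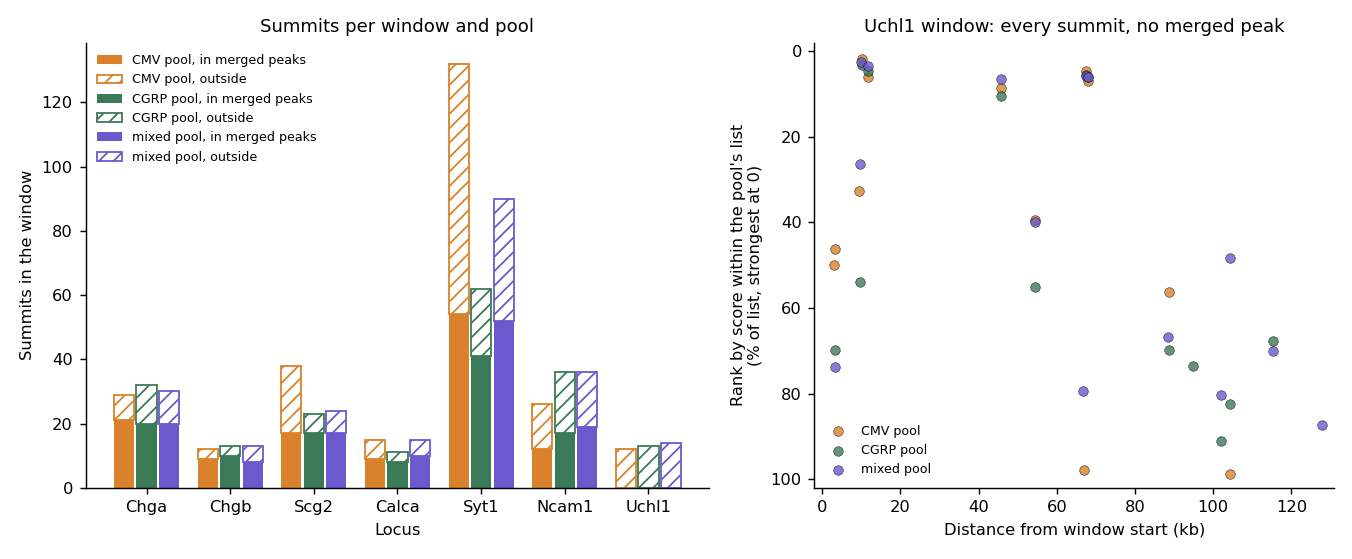
Left, number of summits of each pool in each window, filled where a summit lies in a merged peak and hatched where it does not. Right, every summit of the Uchl1 window by distance from the window start in kb and by its rank within its pool's list in percent, strongest at the top; the strongest site stands near 10 kb in all 3 pools, and the window has 0 merged peaks.

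The rank of the strongest summit in each of the other windows is given as a description. The best of many summits ranks high by construction, and the windows held unlike numbers of them. In the CGRP pool these ran from 11 at Calca to 62 at Syt1, and in the CMV pool from 12 at Chgb to 132 at Syt1. Gene names here stand for windows, and a summit's position does not assign it to the named gene rather than a neighbor. In the CGRP pool, the top summit stood within the top 0.280% of the list at Chgb, 0.386% at Syt1, 0.607% at Scg2 and 2.16% at Chga. Calca followed at 6.91% and Ncam1 at 10.3%. In the CMV pool, the top ranks were 0.353% at Chgb, 0.165% at Syt1, 1.06% at Scg2, 1.89% at Chga, 1.80% at Calca and 10.5% at Ncam1. Ncam1 thus had the weakest top summit of the 7 loci in either list, with 36 CGRP-pool and 26 CMV-pool summits in its window.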

How the data were processed

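Open chromatin was measured by ATAC-seq in 48 libraries. Per the submitters' processing notes, Bowtie2, MACS2, DESeq2 and build mm9 were used, with no versions or roles given. Read trimming, duplicate removal and the Tn5 shift are given by no source used here. Per the labels, summits were called on 3 pools of libraries. The deposited summit score was taken for −log10 of the q-value, since its smallest value is 1.30, and it ranks summits within a list only. The authors' comparison tables hold a mean normalised count, a signal averaged over libraries. Each log2 fold change and SE was deposited by the authors, with its p-value and adjusted p-value. The direction of each comparison was taken from the tables' names, which give 0 columns for single libraries. Depth is therefore unknown, and no count model could be fitted.

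Peaks were assigned to a locus by their centre, and a peak was called at the authors' adjusted p under 0.05 over the whole table. An adjusted p was missing for 6 member peaks in the CGRP comparison, whose counts leave them out. The difference between comparisons was tested two-sided with a z value, the difference over the root of the summed squares of both SEs, and adjusted by Benjamini-Hochberg over 113873 peaks. The description of 1 library without amplification omits the comparison table, so whether the fit used it is uncertain. The members and lists were chosen with earlier results of these data known. Named peaks are, per locus, the one with the highest mean count, the largest raised and lowered change, every peak called in the CGRP comparison and the pair with the lowest adjusted p of the difference. Further strong or called peaks were named after their values were seen. Promoters and gene order came from RefSeq (GRCm38.p6), where 6 of 7 genes had a promoter entry. Peaks were given no gene because that build differs from mm9, and other genes of the pathway were not analysed here. Alternatives covered thresholds, centring, a mean count of at least 20, shortened windows, the second deposited test and summit criteria. Scripts ran in Python 3.11.15 (pandas 2.3.3, numpy 2.4.6, scipy 1.17.1) and figures were drawn with matplotlib 3.10.9.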

Additional observations from a re-analysis of the deposited data

Results flagged for a closer look

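Summits outside every merged peak enter neither comparison. Windows and pools with more than 3 such summits are listed here, by a fixed cut and not by a test. Over the whole lists, 57.5% of CMV-pool, 48.9% of CGRP-pool and 48.6% of mixed-pool summits lie outside merged peaks. Syt1 in the CMV pool (59.1%), Ncam1 in the CGRP pool (52.8%) and Uchl1 in all 3 pools (100%) stood above those shares, and every other window and pool below. These summits have no library-level value and no fold change. The CMV pool had 8 such summits at Chga, 6 at Calca, 14 at Ncam1, 12 at Uchl1, 21 at Scg2 and 78 at Syt1. In the CGRP pool there were 12 at Chga, 19 at Ncam1, 13 at Uchl1, 6 at Scg2 and 21 at Syt1. The mixed pool had 10 at Chga, 5 at Chgb, 5 at Calca, 17 at Ncam1, 14 at Uchl1, 7 at Scg2 and 38 at Syt1. At Uchl1 they were all the summits of the window.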

How the results depend on the processing

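No paired analysis was possible because the deposited tables hold no value per library and the labels give the groups no replicate numbers that pair them. For the same reason, no library was left out and no value within a batch was computed. Raised CMV peaks numbered 55 of 138 (34.3% of all peaks), and 36 of 77 with a mean count of at least 20. They numbered 30 with centring (19.9% of all peaks) and 26 in the authors' second test (19% of all peaks). With windows shortened by 25% at each end, 30 of 69 were raised. Lowered CMV peaks numbered 16 (12.2% of all peaks), 8 at an adjusted p under 0.01 and 9 with a mean count of at least 20. They numbered 37 with centring (25.5% of all peaks), 7 in the second test (4.64% of all peaks) and 8 in the shortened windows. The 2 lowered CGRP peaks (0.779% of all peaks) became 0 in the second test (0.058% of all peaks) and 1 in the shortened windows. Differing peaks numbered 37 (23.4% of all peaks), and 23 at an adjusted p under 0.01 and 20 in the shortened windows. The shares of all peaks at an adjusted p under 0.01 or a mean count of at least 20 were not computed. A mean count of at least 20 keeps 77 of the 138 peaks and shortening keeps 69, so those counts fall by construction. The median CMV log2 fold change with centring was 0.62 at Chga, 0.29 at Calca and -0.88 at Ncam1. Restricted to a mean count of at least 20 it was 0.18 at Calca and 0.14 at Ncam1, the Ncam1 value having the opposite sign to that over all its peaks; the cause was not tested. Centring turned the sign of 3 raised peaks, to -0.046 at the strongest Syt1 peak (chr10:108447800-108448300), -0.098 at the strongest Calca peak (chr7:121779598-121780098) and -0.0073 at a Ncam1 peak (chr9:49605763-49606263). Further raised peaks kept their sign with centring but were no longer called. Among them were chr2:132607099-132607599 at Chgb (0.10) and chr12:103861983-103862483 at Chga (0.79). In the CGRP comparison, a member of median SE needed a log2 change of 0.99 before adjustment.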
